A study of Mus musculus with 4 samples.

Results

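The cells described here are the candidate Langerhans cells and Mgl2 dendritic cells of mouse skin tumours, 181 of 50887 cells kept from 4 single-cell RNA libraries. They were chosen by their unique molecular identifiers (UMIs), each of which counts 1 captured RNA molecule. A kept cell had at least 200 genes and under 20% mitochondrial UMIs. A chosen cell had at least 5 UMIs of H2-Aa, H2-Ab1 and H2-Eb1 together, the genes of surface MHC class II, and at least 1 UMI of Cd207 or Mgl2. It had no UMI of Ccr7, Cd3e or Cd79a, which mark mature dendritic cells, T cells and B cells, and at most 2 of C1qa, C1qb and C1qc together, which mark macrophages. Of the 181 cells, 36 had Cd207 UMIs alone and are called Cd207 cells, 139 had Mgl2 UMIs alone and are called Mgl2 cells, and 6 had both. The levels of these 11 genes follow from the choice, so they are given as a description and were left out of every test.

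All libraries came from LKPR mice, which carry among other alleles, Lgr5CreER, p53fl/fl and Rosa26-YFP+/+. Cre is active in Lgr5-expressing cells of the skin only after tamoxifen, and every mouse, controls included, received 2.5 mg of tamoxifen intraperitoneally on each of 4 days from postnatal day 28. The recombined cells gain yellow fluorescent protein and lose p53, while the immune cells described here keep the alleles unrecombined unless they express the Cre. The 2 control libraries had no NP137. The 2 NP137 libraries came from mice injected with NP137, an antibody that blocks the guidance protein netrin-1. The dose was 10 mg/kg, given every other day until death and begun 4 weeks after the tamoxifen. Tumours were digested with collagenase and all live cells were sorted, with no gate for immune cells. The labels name no animals. UMIs of Xist without Y-linked genes were found in 64.0% and 0.317% of kept cells of control 1 and control 2, and Y-linked UMIs without Xist in 16.9% and 0% of those of NP137 1 and NP137 2, so the 2 libraries of a treatment did not come from the same animals alone. Each p measures the spread between these libraries.

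Langerhans cells live in the epidermis among keratinocytes, to which they adhere through Epcam and E-cadherin, and carry the lectin langerin, encoded by Cd207, which binds sugars of microbes. They depend on TGF-beta and renew themselves in the skin. Type 2 conventional dendritic cells (cDC2) of the dermis take up antigen and carry the lectin Mgl2, also named CD301b, while type 1 cells (cDC1) present antigen to CD8 T cells and can carry langerin too. When any of these cells mature they gain Ccr7, the receptor that leads them to lymph nodes, with chemokines and costimulatory molecules.

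Cd207 (ENSMUSG00000034783, chr6:83671215-83677857 of GRCm38, minus strand) and Mgl2 (ENSMUSG00000040950, chr11:70130329-70137550, plus strand) are protein-coding genes. Mgl2 lies beside its close paralog Clec10a. None (0) of the 666 windows of 90 bases that cover the last 500 bases of annotated Mgl2 transcripts occurs in a Clec10a transcript, so reads of that length there are not shared.

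The chosen cells numbered 34 in control 1, 14 in control 2, 80 in NP137 1 and 53 in NP137 2. Their summed depth was 184066, 142913, 261322 and 499087 UMIs, and their median depth 5027.5, 10424, 2430.5 and 7391 UMIs per cell. NP137 1, the library with most of the cells, was thus the shallowest per cell, and control 2 the deepest. No barcode of a chosen cell occurred as a chosen cell in another library (0 shared). A doublet score marked 6, 2, 15 and 20 of them, 37.7% of those of NP137 2 and 14.3 to 18.75% of those of the other libraries. These cells stayed in, and each comparison was repeated without them. The choice often rested on a single molecule: 10, 5, 32 and 27 cells had just 1 marker UMI. Just inside the C1q limit, with 2 UMIs, were 2, 3, 10 and 4 cells, and just outside it, with 3, were 6, 1, 8 and 1. At the MHC class II limit 0, 1, 1 and 1 cells had 5 UMIs, and 1, 0, 1 and 0 cells with 4 were left out. A further 221, 218, 568 and 823 cells met every other condition without a Cd207 or Mgl2 UMI.

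As a share of kept cells, the chosen cells were 0.291% in control 1 (95% exact binomial interval 0.202 to 0.407), 0.247% in control 2 (0.135 to 0.413), 0.481% in NP137 1 (0.382 to 0.599) and 0.313% in NP137 2 (0.235 to 0.410). Both NP137 shares lay above both control shares, by a mean of 0.129 percentage points (exact 2-sided permutation test, p = 0.333, the smallest that 4 libraries allow). The separation did not hold under each setting: without scored doublets NP137 2 was at 0.227% and control 1 at 0.267%. With at least 2 marker UMIs NP137 2 was lowest, at 0.154% against 0.206% and 0.158% in the controls. Where a kept cell needed 500 genes and a mitochondrial share below 10%, it was at 0.352% against 0.355% in control 1. The intervals cover counting error only, and all 4 overlap. As a share of all cells with MHC class II UMIs at the same limit, they were 2.02%, 3.42%, 4.37% and 1.41%. Here NP137 2 was lowest and NP137 1 highest, so that the treatments overlapped (exact 2-sided permutation test, p = 1). Because all live cells were sorted, a share also moves with the number of other cells.

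The split between both kinds of cell was uneven. Cd207 cells numbered 1, 2, 30 and 3 in control 1, control 2, NP137 1 and NP137 2, and Mgl2 cells 31, 11, 48 and 49. Cd207 cells were 2.94% (0.0744 to 15.3), 14.3% (1.78 to 42.8), 37.5% (26.9 to 49.0) and 5.66% (1.18 to 15.7) of the chosen cells. NP137 1 alone stood high, and NP137 2 lay within the range of the controls (exact 2-sided permutation test, p = 0.667). The NP137 mean was 13.0 percentage points above the control mean, and without NP137 1 the difference was -2.95. The 30 Cd207 cells of NP137 1 did not share a single sex-linked pattern: 12 had UMIs of Xist alone, 8 of Y-linked genes alone and 10 of neither. Among all kept cells of that library 28.8% had Xist alone and 16.9% Y-linked genes alone, so it holds cells of both sexes.

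**Figure D1:**
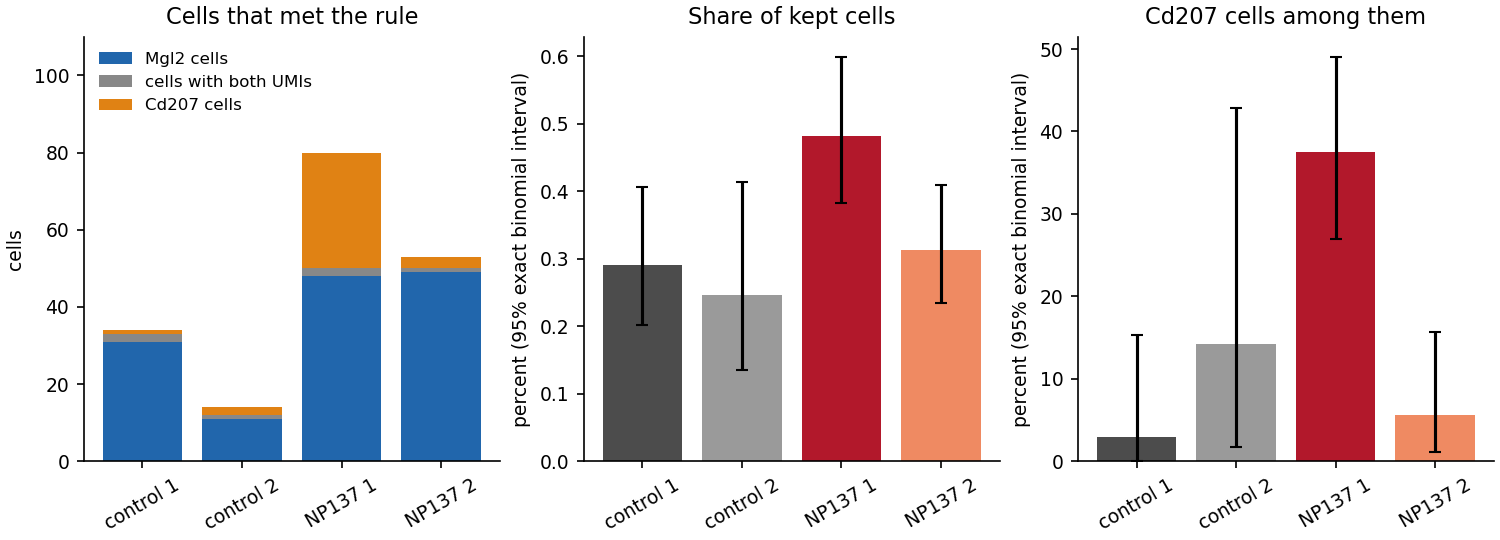
Number of chosen cells per library by marker (left), their share of kept cells (middle) and the share of Cd207 cells among them (right), with 95% exact binomial intervals that cover counting error only. The 30 Cd207 cells of NP137 1 stand apart from the 1 to 3 of the other libraries.

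In NP137 1, the one library with enough Cd207 cells to describe, these cells carried a set of Langerhans genes at a higher level than its Mgl2 cells. Levels are counts scaled to 1000000 UMIs of the summed cells (CPM), from 90437 UMIs in Cd207 cells and 162379 in Mgl2 cells. With 1 library there is no test, and the Poisson intervals cover counting error only. Mfge8 (chr7:79133768-79149060), a secreted protein that binds dying cells, was at 3240 CPM in Cd207 cells and 73.9 CPM in Mgl2 cells, a ratio of 43.8. Epcam (chr17:87635979-87651129), an adhesion molecule, was at 1327 and 567 CPM, a ratio of 2.34, so the Mgl2 cells held it as well. H2-M2 (chr17:37480851-37483552), a non-classical MHC class I gene, had 69 UMIs in Cd207 cells and 0 in Mgl2 cells, at least 41.3-fold higher against a floor of 3 UMIs. Hpgds (chr6:65117293-65144908), which makes prostaglandin D2, had 49 UMIs (542 CPM) in the 30 Cd207 cells and 2 UMIs (12.3 CPM) in the 48 Mgl2 cells. Ptgs1, the cyclooxygenase upstream of it, was at 310 and 37.0 CPM, a ratio of 8.38. Ltc4s (chr11:50236461-50238616), which makes leukotriene C4, was at 453 and 111 CPM, a ratio of 4.09. Cldn1, a tight junction protein, was at 210 and 24.6 CPM, a ratio of 8.53.

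The same Cd207 cells lacked or had little of the genes of dermal and monocyte-related cells. Cd209a (ENSMUSG00000031494), a lectin of cDC2, had 0 UMIs against 17 (105 CPM) in Mgl2 cells of that library, at least 3.16-fold lower. Its relative Cd209d had 0 against 20 UMIs (123 CPM), and Mrc1, the mannose receptor, 0 against 13 (80.1 CPM). Ccr2, the receptor that brings monocytes out of blood, had 1 UMI against 23. Lyz2, lysozyme of myeloid cells, was at 111 CPM against 936, a ratio of 8.47 in favour of Mgl2 cells. Ccl17, a chemokine of dermal dendritic cells, had 2 UMIs against 34. Napsa, an aspartic protease found in dendritic cells and given as a marker of both kinds, did not part them: it was at 487 CPM in Cd207 cells and 647 in Mgl2 cells.

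**Figure D2:**
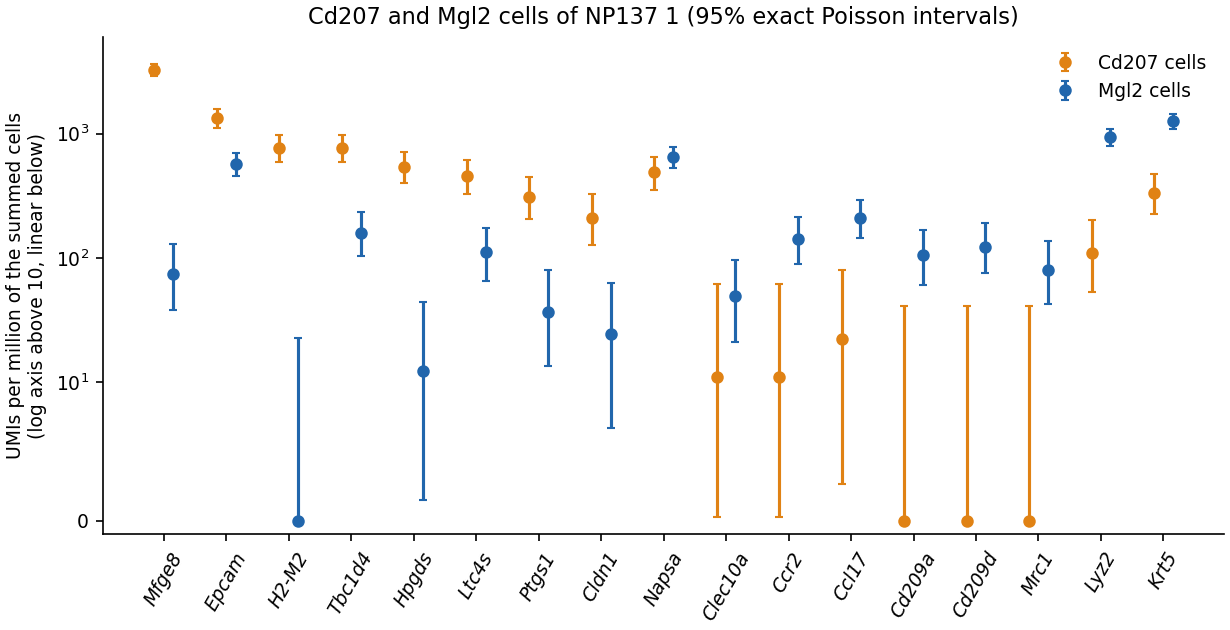
Level of 17 genes in the 30 Cd207 cells and the 48 Mgl2 cells of NP137 1, in CPM on an axis that is logarithmic above 10 and linear below, with 95% exact Poisson intervals. Langerhans genes from Mfge8 (3240 against 73.9 CPM) to Cldn1 are higher in Cd207 cells, Napsa is alike, and Cd209a, Cd209d and Mrc1 have no UMI there.

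Single cells showed the same set together. Of the 30 Cd207 cells of NP137 1, 24 carried at least 2 of Epcam, Mfge8 and Ltc4s, and 19 carried all 3 genes. Of the Mgl2 cells 9 of 31, 4 of 11, 17 of 48 and 11 of 49 carried at least 2. Mfge8 is widespread elsewhere: in NP137 1 38.2% of kept cells without any MHC class II UMI had it, against 1.09% with Ltc4s. The 19 Cd207 cells with 3 or more Cd207 UMIs held Epcam in 18, Mfge8 in 18, Ltc4s in 15 and Lyz2 in 0. The 8 cells with 1 Cd207 UMI held Epcam in 7, Mfge8 in 3, Ltc4s in 3 and Lyz2 in 5, so Lyz2 and weak Mfge8 went with a single Cd207 molecule. Cells were also thinned to 2000 UMIs each, to compare cells of different depth. Of the Cd207 cells of NP137 1, 11 were too shallow and 19 remained, and 89.5% of these (17 of 19, interval 66.9 to 98.7) had an Epcam UMI, against 93.3% before thinning. In Mgl2 cells the thinned Epcam shares were 31.0%, 30.0%, 46.3% and 18.4%, and in kept cells without any MHC class II UMI, not thinned, 8.25%, 30.2%, 37.4% and 14.2% at a median of 4383, 4102.5, 2375 and 2976 UMIs. In C1q macrophages, which should lack it, the thinned shares were 3.2%, 14.5%, 22.9% and 5.5%. Epcam was thus most widespread in other cells of control 2 and NP137 1, and the Cd207 cells of NP137 1 lay above every one of these shares. The Mgl2 cells lay above the macrophages in each library. Against the cells without MHC class II UMIs, which include epithelial cells, they were close in control 2 (30.0% and 30.2%) but well above in control 1 (31.0% and 8.25%). Those cells were not thinned, so these shares are not at like depth. The part of free RNA in the Epcam UMIs of Mgl2 cells was not tested. After the same thinning, Mfge8 was found in 84.2% of Cd207 cells of NP137 1, 12.2% of its Mgl2 cells and 14.4% of its macrophages, and Ltc4s in 63.2%, 14.6% and 12.5%.

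The few Cd207 cells elsewhere were of more than one sort. Those of control 2 had the Langerhans genes, with 53 UMIs of Epcam, 36 of Mfge8, 36 of H2-M2, 18 of Hpgds and 13 of Ptgs1 in 2 cells, of which 1 was scored as a doublet. The single cell of control 1 had 4 UMIs of Hpgds, 2 of H2-M2 and 1 each of Epcam and Ptgs1, and 0 of Mfge8, among 1270 UMIs. The 3 cells of NP137 2 had 0 UMIs of Epcam, Hpgds, H2-M2, Ptgs1 and Cldn1, 1 of Mfge8 and 2 of Ltc4s. They held Irf8, a transcription factor needed by cDC1, with 21 UMIs in 2 cells, Naaa in all 3 cells, and the chemokine receptor gene Xcr1 in 1 cell. All 3 also carried at least 2 macrophage genes and at least 2 fibroblast genes, and 1 was scored as a doublet. These 3 cells, mixed in their markers and without most Langerhans genes, are called Cd207 cells by the rule alone. The 2 cells of control 1 with both markers each carried at least 2 of 5 cDC1 markers.

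Cd207 and Mgl2 cells were then compared within library, with library as a block, by edgeR's quasi-likelihood test on summed counts with Benjamini-Hochberg adjustment. This is a thin comparison, since the Cd207 sums hold 1, 2, 30 and 3 cells. Of 2111 genes tested, 26 passed an adjusted p of 0.05 (1.23%), 7 higher in Cd207 cells (0.332%) and 19 lower (0.9%). Those higher were Hpgds, H2-M2, Ptgs1, Cldn1, Cracr2b, Tbc1d4 and Tsc22d3. Hpgds was at 3150, 1046, 542 and 0 CPM in Cd207 cells and at 23.8, 17.2, 12.3 and 11.1 CPM in Mgl2 cells of control 1, control 2, NP137 1 and NP137 2. It was higher in Cd207 cells of 3 libraries and not in NP137 2 (log2 fold change 4.39, SE 0.74, edgeR adjusted p = 5.4e-06). H2-M2 (4.80, SE 0.96, edgeR adjusted p = 0.0018), Ptgs1 (2.98, SE 0.68) and Cldn1 (3.15, SE 0.73) likewise had no UMI in the Cd207 cells of NP137 2. Tsc22d3, a gene induced by glucocorticoids, was higher in 4 of 4 libraries (2.17, SE 0.61, edgeR adjusted p = 0.039), from 3, 7, 12 and 4 UMIs in Cd207 cells. The calls rest on single libraries: 0 genes passed without control 1, whose sum is 1 cell, 3 without control 2, 1 without NP137 1 and 20 without NP137 2, by edgeR.

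Of the 8 Langerhans genes, 7 were tested against Mgl2 cells, 1 was higher (Cldn1) and the median log2 difference was 1.22, against -0.26 over all genes tested. Mfge8 (2.86, SE 0.96, edgeR adjusted p = 0.12), Ltc4s (1.71, SE 0.63, edgeR adjusted p = 0.20) and Epcam (0.75, SE 0.80, edgeR adjusted p = 0.98) did not pass. Of 7 cDC2 genes tested, 2 were lower in Cd207 cells and the median was -1.47. These were Cd209a and Cd209d, each with 0 UMIs in all 143779 UMIs of Cd207 cells, against 118 and 107 in Mgl2 cells. That is at least 6.30-fold and 5.71-fold lower against a floor of 3 UMIs over the pooled cells. In the fit, genes of keratinocytes and fibroblasts lay lower too: of 6 and 4 tested 0 lay above 0, with medians of -1.93 and -0.78, and Krt5 and Dcn passed as lower. Summed levels differed by library. The 6 fibroblast genes were at 3118 CPM in Cd207 cells and 1921 in Mgl2 cells of NP137 1, and at 523 and 302 in control 2. In control 1 they were at 787 and 2249, and in NP137 2 at 774 and 4511. The 9 keratinocyte genes were at 1575 and 440 CPM in control 1, whose sum is 1 cell. They were lower in Cd207 cells of control 2, NP137 1 and NP137 2. The part of such RNA in these differences was not tested. Of 5 monocyte genes 4 were lower (Chil3, Ccr2, Lyz2 and Plac8), with a median of -3.56, or -2.85 with Ly6c2, at 0 in Cd207 cells, set to its bound.

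Mgl2 cells, the larger kind, were described in all 4 libraries. Mgl2 itself was at 1101, 896, 807 and 494 CPM in control 1, control 2, NP137 1 and NP137 2. At least 2 of the cDC2 genes Cd209a, Clec10a, Sirpa and Klf4 were found in 22 of 31, 10 of 11, 22 of 48 and 34 of 49 of them. Cd209a was at 155, 121, 105 and 135 CPM, a narrow range in which treatments overlapped. Klf4, a transcription factor needed by Mgl2 dendritic cells, was at 547, 948, 314 and 513 CPM, highest in control 2 and lowest in NP137 1. Clec10a, the paralog of Mgl2, was at 155, 86.2, 49.3 and 113 CPM. Napsa UMIs were found after thinning in 69.0%, 63.4% and 51.0% of Mgl2 cells of control 1, NP137 1 and NP137 2 and 5 of 10 of control 2, and in 12.0%, 31.0%, 27.9% and 14.4% of macrophages with C1q UMIs. The 4 cDC2 genes differed in how far macrophages shared them. After thinning, Cd209a was found in 10.3%, 26.8% and 22.4% of Mgl2 cells of control 1, NP137 1 and NP137 2 and 2 of 10 of control 2, against 0.167%, 0.690%, 0.136% and 0.284% of macrophages of the 4 libraries. Clec10a was found in 20.7%, 9.76% and 28.6% and 2 of 10, against 3.00%, 3.45%, 3.12% and 12.1%. Sirpa was found in 31.0%, 22.0% and 24.5% and 4 of 10, below the 49.8%, 46.2%, 34.0% and 44.4% of macrophages in each library. Klf4 lay between 36.3% and 78.6% in macrophages, and in Mgl2 cells at 48.3%, 53.7% and 51.0% and 8 of 10. Cd209a and Clec10a were thus more frequent than in macrophages in each library, while Sirpa and Klf4 do not part the 2 kinds of cell.

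The Mgl2 cells also held genes of other cells, and their part in the results below was not tested. At least 2 monocyte genes (Ly6c2, Ccr2, Plac8, Chil3, Lyz2) were found in 18, 9, 18 and 42 of them, most often in NP137 2. At least 2 neutrophil genes (S100a8, S100a9, Retnlg, Csf3r) were found in 6, 1, 3 and 20. At least 2 keratinocyte genes were found in 20, 10, 36 and 19, and at least 2 collagen and other fibroblast genes in 17, 9, 7 and 42. Markers of plasmacytoid dendritic cells (Siglech, Ccr9, Klk1), the makers of interferon, came at least 2 together in 1, 1, 0 and 8 cells, and 3 of those 8 were scored as doublets. B cell and mast cell genes came at least 2 together in 0 cells, and T cell genes in 1, 0, 3 and 1. Over all chosen cells the 5 monocyte genes summed to 1173, 6703, 1152 and 5153 CPM, so control 2 and NP137 2 were high and the treatments overlapped.

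The chosen cells were next set against dendritic cells that met the same rule but had Ccr7 UMIs, 65, 13, 83 and 119 per library, with Cd207 and Mgl2 not read. The test was edgeR's, within library. Of 4658 genes tested, 133 passed (2.86%), 42 higher in the chosen cells (0.902%) and 91 lower (1.95%). Genes of the maturation list were lower: 10 of 16 genes tested passed as lower and 0 as higher, with a median log2 difference of -1.69 against -0.0019 over all genes. The sets were split by Ccr7, which cells gain with such genes as they mature. This difference thus follows in part from the choice and is no independent finding about the chosen cells. Ccl5, a chemokine for T cells, was at 0, 70.0, 7.65 and 26.1 CPM in the chosen cells and at 565, 995, 207 and 623 CPM in Ccr7 cells of the same libraries (log2 fold change -4.66, SE 0.34, edgeR adjusted p = 7.6e-05). The groups did not overlap. Ccl22, a chemokine for regulatory T cells, was at 10.9, 112, 42.1 and 12.0 CPM against 467, 751, 265 and 262 CPM (-3.52, SE 0.34, edgeR adjusted p = 5.8e-04). Fscn1, which bundles actin in mature dendritic cells, was at 16.3, 28, 72.7 and 58.1 CPM against 264, 622, 296 and 379 CPM (-2.97, SE 0.31). Cacnb3, Relb, Ccl17, Socs2, Cd83, Cd274 and Nudt17 were the other genes lower. Of these Nudt17 had 0 UMIs in the chosen cells against 64, at least 13.5-fold lower against a floor of 3 UMIs over the pooled cells.

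A minority of the genes of antigen loading (2 of 9), uptake (3 of 10) and cytokines (4 of 14) passed as higher in the chosen cells than in Ccr7 cells. H2-DMa, which loads peptide onto MHC class II, was at 934, 1190, 895 and 509 CPM against 645, 787, 423 and 379 CPM, higher in 4 of 4 libraries (0.63, SE 0.13, edgeR adjusted p = 0.016). Its partner H2-DMb1 was higher too (0.74, SE 0.14, edgeR adjusted p = 0.0067). The uptake receptors that passed were Mrc1 (1.83, SE 0.30) and the Fc receptors Fcgr2b and Fcgr3. The 4 cytokine genes were the chemokines Ccl3, Ccl4, Ccl6 and Cxcl2, of which Ccl3 and Cxcl2 did not pass without scored doublets (edgeR adjusted p = 0.11 for each). Ccr2 was at 136, 441, 91.8 and 359 CPM against 68.3, 146, 10.3 and 131 CPM, higher in 4 of 4 libraries (1.52, SE 0.23, edgeR adjusted p = 0.0020). Among marker lists, 2 of 7 Langerhans genes were higher, Epcam and Ltc4s, and 1 of 9 cDC2 genes, Cd209d (2.02, SE 0.30, edgeR adjusted p = 0.0017). Epcam was at 212, 700, 876 and 198 CPM against 164, 323, 420 and 147 CPM (0.74, SE 0.17, edgeR adjusted p = 0.026). Without NP137 1, Epcam (edgeR adjusted p = 0.25), Ltc4s (0.39), H2-DMa (0.16) and H2-DMb1 (0.068) did not pass. No (0) cDC1, pan-dendritic or TGF-beta list gene passed, of 5, 4 and 12 tested. Flt3, the growth factor receptor of dendritic cells, came closest among them, with a difference of -1.42 (SE 0.38, edgeR adjusted p = 0.063).

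Against macrophages, cells of the same rule with at least 3 C1q UMIs (1300, 150, 1044 and 1440 per library), differences were more numerous. By edgeR's test within library, 512 of 9295 genes passed (5.51%), 210 higher in the chosen cells (2.26%) and 302 lower (3.25%). Of 9 genes of MHC class II handling that the rule did not read, 7 were higher and 2 lower, with a median of 0.84 against -0.074 over all genes. H2-Oa, which tunes peptide loading, was at 130, 56.0, 130 and 74.1 CPM against 2.70, 8.86, 13.7 and 4.65 CPM in macrophages, with no overlap (3.88, SE 0.37). H2-DMb2, Cd74, H2-DMa, Ciita, H2-Ob and H2-DMb1 were the others higher. The lysosomal protease genes Lgmn (-2.22, SE 0.17) and Ctss (-0.73, SE 0.11) were lower.

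Genes of dendritic cell lineage followed. Of 4 pan-dendritic genes, 2 were higher: Flt3 (4.40, SE 0.80, edgeR adjusted p = 1.8e-04) and Dpp4 (3.21, SE 0.49). Flt3 was at 43.5, 21, 11.5 and 16.0 CPM against 0.851, 1.66, 0.875 and 0.853 CPM, from 8, 3, 3 and 8 UMIs in the chosen cells. Of 9 cDC2 genes, 4 were higher, Cd209a (5.81, SE 0.38), Cd209d (5.12, SE 0.34), Kmo (3.00, SE 0.45) and Irf4 (2.45, SE 0.47), and 1 was lower, Sirpa (-0.94, SE 0.16). Of 8 cDC1 genes, 4 were higher: Wdfy4, Naaa, Xcr1 and Itgae. Of 7 Langerhans genes, 2 were higher: Cldn1 (2.11, SE 0.38) and Epcam (1.77, SE 0.32). Epcam did not pass without NP137 1 (edgeR adjusted p = 0.21) or without scored doublets (0.15). Among plasmacytoid genes Klk1 and Siglech were higher, 2 of 3 tested. Siglech was at 38.0, 126, 3.83 and 102 CPM in the chosen cells, and all of its UMIs lay in Mgl2 cells. Napsa, at 2.24 (SE 0.44), did not pass (edgeR adjusted p = 0.11).

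Macrophage genes were lower, 5 of 7 tested, with a median of -1.45 and 0 higher. The sets were split by C1q UMIs, which mark macrophages, so this too follows in part from the choice. Adgre1, the F4/80 antigen, was at 65.2, 42.0, 11.5 and 16.0 CPM against 173, 136, 113 and 175 CPM (-2.46, SE 0.29). The chemokine gene Ccl8 was at 10.9, 0, 19.1 and 44.1 CPM against 171, 59.8, 233 and 769 CPM (-4.04, SE 0.25). Folr2, the folate receptor of resident macrophages, was lower too (-3.16, SE 0.30). Cytokine genes passed as lower in 6 of 15, Ccl6, Ccl9, Il10, Cxcl16, Il1rn and Tnf, and uptake receptors in 5 of 11. Of 13 TGF-beta genes, 2 were lower, the receptor Tgfbr2 (-0.93, SE 0.22, edgeR adjusted p = 0.0043) and Axl (-0.74, SE 0.22, edgeR adjusted p = 0.046), which did not pass with DESeq2 or without control 1 or NP137 1. Both comparisons share the sums of the chosen cells. In them 10 genes were higher against Ccr7 cells and against macrophages alike, 23.8% of the 42 and 4.76% of the 210: Alox5ap, Cd209d, Epcam, Fxyd5, Gm5483, Gpr141, H2-DMa, H2-DMb1, Siglech and Zfp36l2. Macrophage RNA summed over 7 genes was 4553, 4982, 1251 and 2737 CPM in the chosen cells, against 12273 to 19238 CPM in the macrophages.

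**Figure D3:**
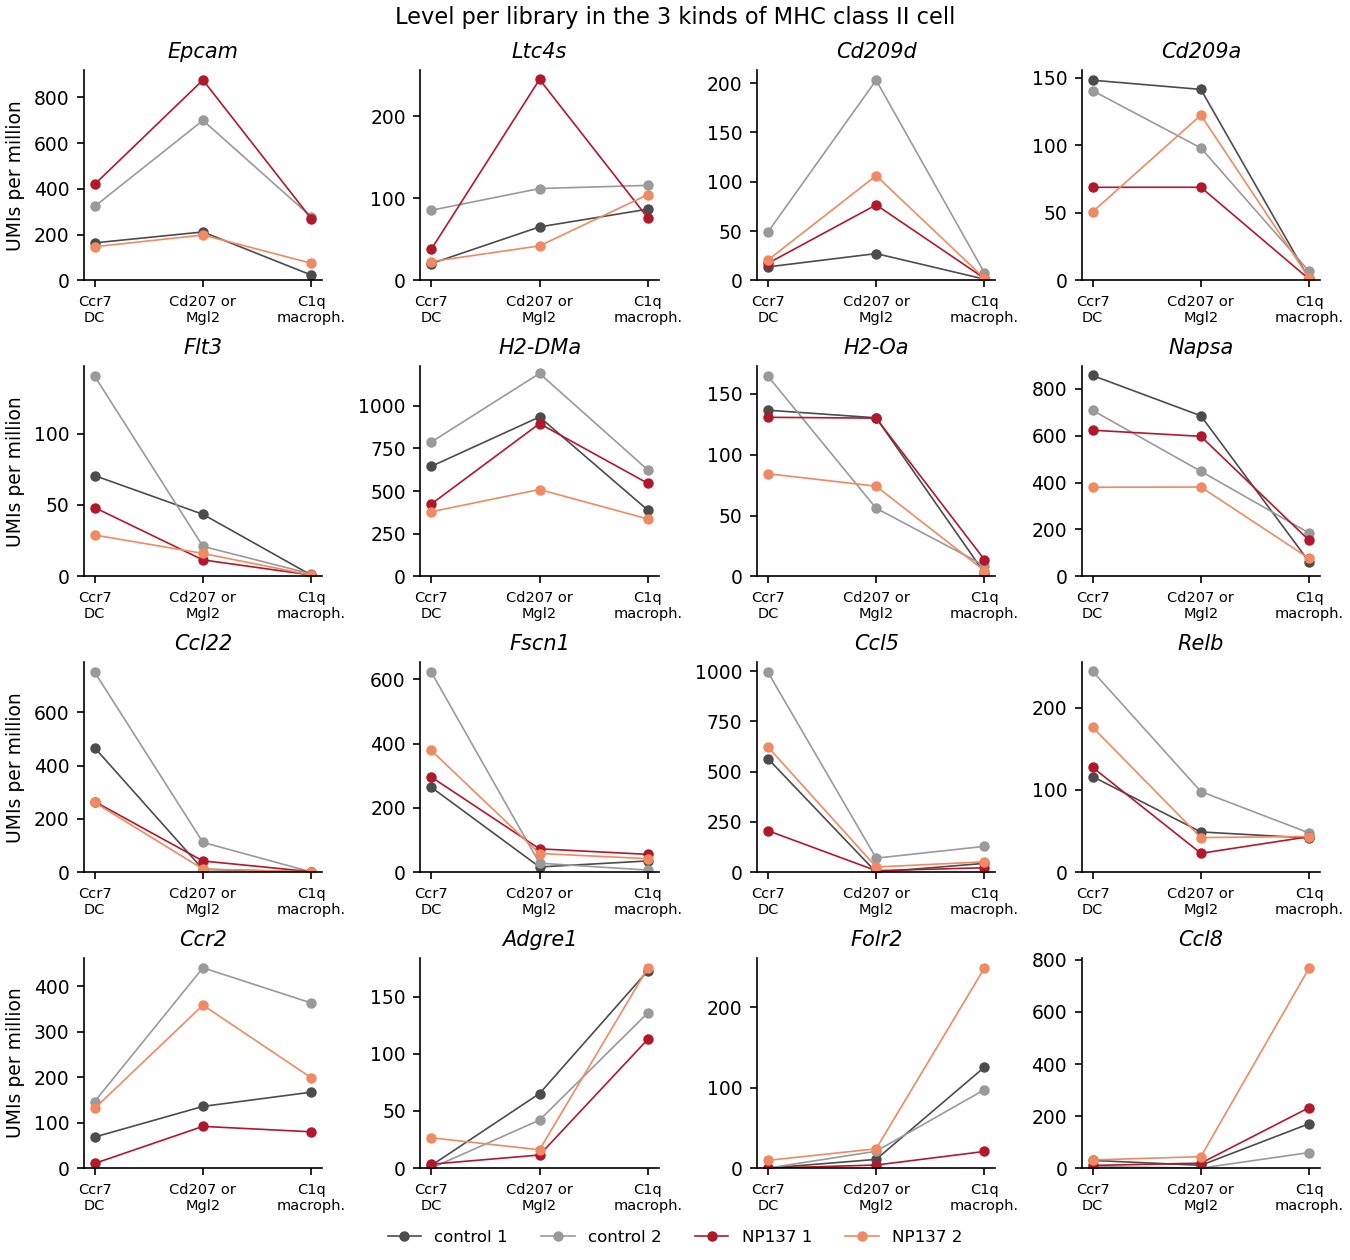
Level per library (CPM, linear axes from 0) of 16 genes in Ccr7 dendritic cells, the cells with Cd207 or Mgl2 UMIs, and C1q macrophages; a line joins the 3 sets of 1 library. Epcam and Cd209d are highest in the middle set in all 4 libraries, Ccl22, Fscn1 and Ccl5 in Ccr7 cells, and Adgre1, Folr2 and Ccl8 in macrophages.

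NP137 was compared with control over all chosen cells, which asks whether blocking netrin-1 goes with a different state of these cells. No gene passed: 0 of 3275 tested (0%) by edgeR's quasi-likelihood test, with a smallest adjusted p of 0.97. At an unadjusted p of 0.05, 147 genes (4.49%) lay below, and DESeq2 called 6. In the 2 against 2 design the 12 genes of smallest p without overlap are therefore values and not calls. Saa3, an acute phase protein, was at 21.7 and 0 CPM in the controls and 448 and 777 CPM under NP137 (log2 fold change 5.56, SE 0.80, edgeR adjusted p = 0.97). Areg, a growth factor of the EGF family, was at 38.0 and 49.0 against 214 and 671 CPM, and Mmp13, a collagenase, at 120 and 42.0 against 409 and 862 CPM. Without scored doublets the log2 difference of Saa3 was 2.08, and that of Mmp13 turned from 2.87 to -0.54. Fam162a, a target of hypoxia signalling, was at 76.1 and 42.0 against 256 and 303 CPM. In the other direction Apoe was at 3721 and 4023 CPM in the controls and 800 and 1819 CPM under NP137 (-1.63, SE 0.39). Itgax, which encodes CD11c, was at 239 and 210 against 103 and 108 CPM (-1.15, SE 0.34). In none of these genes did the treatments overlap, which is how they were picked.

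Cells of no MHC class II UMI in the same libraries held several of these genes, with both NP137 libraries again above both controls. Saa3 was there at 328, 55.2, 590 and 2994 CPM in control 1, control 2, NP137 1 and NP137 2, Mmp13 at 255, 55.9, 1001 and 580 CPM, and Fam162a at 328, 193, 633 and 655 CPM. Itgax was nearly absent there, at 2.39, 1.03, 3.66 and 4.27 CPM. Markers of several other cells also differed between the treatments in the chosen cells. The 4 neutrophil genes summed to 163 and 56.0 CPM in the controls and 827 and 3536 CPM under NP137, and the 9 keratinocyte genes to 435 and 1770 against 4879 and 2066 CPM. Control 2 and NP137 2 were thus close in keratinocyte genes. The 6 fibroblast genes summed to 2097 and 315 against 2273 and 4146 CPM, with control 1 near NP137 1. The 7 macrophage genes, Apoe among them, were lower under NP137, at 4553 and 4982 against 1251 and 2737 CPM. The part of such RNA in the differences was not tested.

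**Figure D4:**
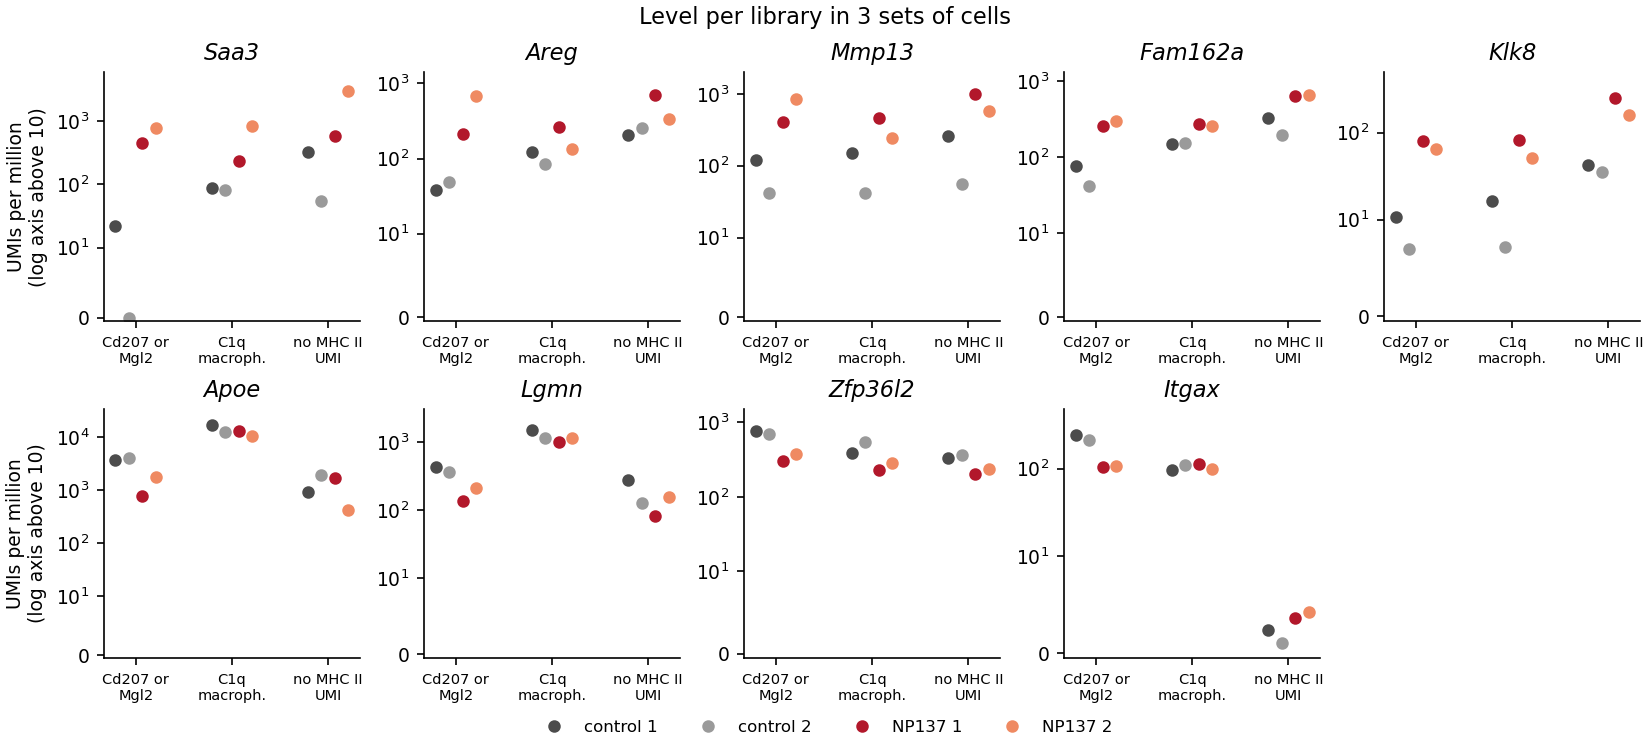
Level per library (CPM, logarithmic above 10 and linear below) of 9 genes in the cells with Cd207 or Mgl2 UMIs, in C1q macrophages and in kept cells without an MHC class II UMI. No gene passed the test in the first set; the NP137 libraries lie above the controls in Saa3 (448 and 777 against 21.7 and 0 CPM), and Saa3, Mmp13, Fam162a and Klk8 order the treatments alike in the other 2 sets.

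By gene list, 0 members passed in any list. Of 11 hypoxia and glycolysis genes tested, 10 lay above 0, with a median log2 difference of 0.72 against -0.014 over all genes, of which 48.8% lay above 0. Of 8 genes of MHC class II handling 0 lay above 0 (median -0.61), of 7 cDC2 genes 0 (median -0.39), of 8 maturation genes 1 (median -0.42) and of 11 TGF-beta genes 2 (median -0.32). Of 6 Langerhans genes 5 lay above 0 (median 0.48), and these include the 30 Cd207 cells of NP137 1. The netrin ligands and receptors were too low for the test in all chosen cells, 0 of 8.

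Within Mgl2 cells alone, control 2 had 11 cells and was left out, which leaves 1 control library against 2. Its spread was taken to be that of the NP137 libraries. By edgeR 2 of 3213 genes passed (0.0622%), 1 lower (0.0311%) and 1 higher (0.0311%). H19, an imprinted growth-related RNA, was at 417 CPM in Mgl2 cells of control 1 and at 6.16 and 2.21 CPM in NP137 1 and NP137 2 (log2 fold change -6.83, SE 0.66, edgeR adjusted p = 0.0074). It was at 17.2 CPM in the 11 Mgl2 cells of control 2, near the NP137 libraries, and at 455, 133, 108 and 14.8 CPM in cells without MHC class II UMIs. Saa3 was at 23.8 CPM in control 1, and 714 and 850 CPM under NP137 (4.95, SE 0.63, edgeR adjusted p = 0.036), with 0 UMIs in control 2. With control 2 kept, 0 genes passed by edgeR. A doublet score marked 38.8% of the Mgl2 cells of NP137 2. Without scored doublets 3 genes passed by edgeR, 0 of them shared with these 2: Saa3 was at 1.36 (edgeR adjusted p = 1.0) and H19 was not among the genes tested. With at least 2 marker UMIs 22 passed by edgeR, 1 of them shared, Saa3. Cd207 cells allowed no such comparison, since only NP137 1 had 20 or more. A test of whether the NP137 difference itself differed between Cd207 and Mgl2 cells found 0 of 2111 genes (0%) by edgeR, with 112 at an unadjusted p under 0.05, and 1 gene by DESeq2.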

How the data were processed

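Droplet single-cell RNA was measured in 2 control and 2 NP137 libraries. The authors deposited UMI counts for each gene and barcode. Per the file headers the software was 10x version 3.0.2. The build mm10 and Seurat 3.1.5 come from the submitters' processing notes. The aligner's settings were not stated, and the labels name both V2 and V3 chemistry without saying which library had which. Of 31053 Ensembl IDs, 31011 are in GENCODE M21, the source of coordinates. A few items are not reported here. The cells, lists and tests were chosen with earlier results of these data known.

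Kept cells (11677, 5679, 16617 and 16914) were selected as described and UMIs were summed per library and cell set. The 11 genes of the rule stayed in library sizes and out of tests. Sums were compared with the quasi-likelihood test of edgeR (filterByExpr, TMM, then glmQLFit with robust on), 2-sided, with Benjamini-Hochberg adjustment at 0.05. A set needed 20 cells per library for a comparison of treatments. CPM are scaled to the sum without TMM factors. Doublets were the highest Scrublet scores, 0.8% per 1000 barcodes, and were removed only as an alternative.

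Named genes were, per comparison, the 10 strongest each way by log2 fold change that passed with a mean of at least 20 CPM and no overlap between treatments (within library: the same sign in all 4), filled up to 6 by smallest p, the top 3 passing members by p in every list, and members of the Langerhans, dendritic, maturation and TGF-beta lists. Others, among them Hpgds, H2-M2, Ptgs1, Tbc1d4 and Cracr2b, were picked with their values in view. The alternatives tried were DESeq2, its size factors within edgeR, low counts left unfiltered, stricter cells (500 genes, 10% mitochondrial UMIs), doublets removed, at least 2 marker UMIs, no C1q UMI, thinning to 1000 UMIs or none, the replicate block, and each library left out. Keeping control 2 in Mgl2 cells was an alternative added after seeing the data. After the fits, tests were tried on counts simulated from the mean levels and fitted dispersions of these data. This covered NP137 against control in all chosen cells, Cd207 against Mgl2 cells, and the chosen cells against Ccr7 cells and macrophages. The other comparisons were not tried. For NP137 against control, 5.26% of genes changed by a log2 of 1 were recovered, 59.2% at 2 and 100% at 4. Most changes of a log2 of 1 and part of those of 2 could thus be missed there. For Cd207 against Mgl2 cells 6.52% were recovered at 1, 38.9% at 2 and 100% at 4. Against Ccr7 cells and macrophages 80.6% and 78.2% were recovered at 1, and 100% at 2 in both. Changed genes were drawn only from those of higher mean level.

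Versions were edgeR 4.0.16, DESeq2 1.42.0 and limma 3.58.1 under R 4.3.3, and scanpy 1.11.5, scipy 1.17.1, pandas 2.3.3, numpy 2.4.6 and matplotlib 3.10.9 under Python 3.11.15.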

Additional observations from a re-analysis of the deposited data

Results flagged for a closer look

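In 7 of 161 named genes screened, 5 of 77 against Ccr7 dendritic cells and 2 of 84 against C1q macrophages, each library of one treatment differed from the comparison cells in one direction and each library of the other treatment in the opposite one. The values are the mean log2 ratio to the comparison cells under NP137 minus that under control. The differences were not tested. Against Ccr7 dendritic cells they were 0.63 for Cd24a, 1.44 for Cdh1, -0.71 for Runx3, -0.52 for Tgfb1 and -0.48 for Tgfbr2. Cdh1, which encodes the E-cadherin that holds Langerhans cells to keratinocytes, was at 103, 42.0, 149 and 66.1 CPM in the chosen cells and 109, 85.4, 82.6 and 32.6 CPM in Ccr7 cells of control 1, control 2, NP137 1 and NP137 2. Runx3, a transcription factor that acts downstream of TGF-beta in Langerhans cells, was at 196, 189, 107 and 114 CPM against 137, 140, 134 and 129 CPM. Against C1q macrophages they were -1.05 for Relb and 0.30 for Spi1. Relb, a transcription factor of dendritic cell maturation, was at 48.9, 98.0, 23.0 and 42.1 CPM in the chosen cells, from 9, 14, 6 and 21 UMIs, and 41.6, 47.6, 43.2 and 43.3 CPM in macrophages.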

How the results depend on the processing

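Counts of genes passing depended on the settings. For NP137 against control in all chosen cells (0 genes) DESeq2 called 6, no filter on low counts 47, the replicate block 6 and leaving out a library 32 to 65, where the lone library is assumed to vary like the other group. In Mgl2 cells (2 genes) the counts were 4 with DESeq2, 5 with its size factors, 27 without filter, 22 with at least 2 marker UMIs, and 0 with control 2 kept, also with the replicate block. For Cd207 against Mgl2 cells (26) they were 9 with DESeq2, 16 with its size factors, 13 without filter, 5 with no replicate block, that is without library as a block, and 0 to 20 without one library. For the difference of effects (0) they were 1 with DESeq2, 15 with stricter cells, 1 with at least 2 marker UMIs and 0 to 1 without one library. Against Ccr7 cells (133) they were 65 with DESeq2, 306 without filter, 10 with no replicate block and 86 to 115 without one library. Against macrophages (512) they were 324 with DESeq2, 58 with no replicate block and 325 to 472 without one library. The cause of these shifts was not tested.

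The share among MHC class II cells, 0.17 points higher under NP137, was -0.16 with at least 2 marker UMIs and -1.31 to 1.65 without one library. The share of Cd207 cells was -2.95 to 28.9 points higher, and the Epcam share of Mgl2 cells -12.1 to 15.8. With doublets removed, 100% of Cd207 cells of NP137 1 had Epcam. Reversed were Mmp13 in all chosen cells (-0.54 with doublets removed), Ly6d in Mgl2 cells (-1.36 with control 2 kept, -0.82 with the replicate block too), Areg (2.43) and Cd48 (1.75) in the difference of effects without control 2, with ranges of -4.20 to 2.43 and -4.67 to 1.75 without one library, and Jun against Ccr7 cells (-0.0053 with doublets removed). Same-numbered libraries deviated together with a correlation of 0.098 over 3280 genes, from 2 pairs, so the numbers were not taken as pairs. With 181 cells, genes of a few UMIs per library were not testable.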

Other observations

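Against macrophages, 2 of 15 maturation genes were higher in the chosen cells and 1 lower, and of 7 chemokine receptors and other migration genes 2 were higher and 1 lower, by edgeR. Over all genes tested 2.26% were higher and 3.25% lower. The median log2 differences were 0.32 for the maturation genes and -0.33 for the receptors, against -0.074 over all genes. Cd86, a ligand that costimulates T cells, was at 277, 224, 291 and 112 CPM in the chosen cells of control 1, control 2, NP137 1 and NP137 2 and at 101, 189, 144 and 98.1 CPM in C1q macrophages, higher in 4 of 4 libraries (log2 fold change 0.71, SE 0.19, edgeR adjusted p = 0.020). Gpr183, an oxysterol receptor that positions dendritic cells, was higher in 4 of 4 (0.92, SE 0.18, edgeR adjusted p = 5.9e-04). Cx3cr1, the fractalkine receptor of resident macrophages, was at 27.2, 63.0, 3.83 and 52.1 CPM against 223, 246, 87.3 and 117 CPM, lower in 4 of 4 (-2.09, SE 0.32, edgeR adjusted p = 8.1e-04), and had 0 UMIs in Cd207 cells of every library. Psmb8, an immunoproteasome subunit, was at 592, 602, 555 and 615 CPM against 194, 384, 345 and 509 CPM, a narrow range in the chosen cells (0.75, SE 0.17, edgeR adjusted p = 0.011). Without NP137 1, Cd86 (edgeR adjusted p = 0.10) and Psmb8 (0.080) did not pass.

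Of the genes that respond to tissue dissociation, 2 of 14 were higher than in Ccr7 cells, Fosb and Jun, and 4 of 14 were lower than in macrophages, Ier3, Fos, Dusp1 and Egr1. Over all genes tested 0.902% were higher than in Ccr7 cells and 3.25% lower than in macrophages. The median of the list was 0.49 against Ccr7 cells (-0.0019 over all genes) and -0.31 against macrophages (-0.074 over all genes). The calls of Fosb and Jun were lost with DESeq2, without scored doublets, with at least 2 marker UMIs, without library as a block, and without control 1, control 2 or NP137 1, and Jun was at -0.0053 without scored doublets. The 16 type I interferon genes had a median log2 difference of -0.39 against macrophages. Of them 2 were lower, Oasl1 (-1.51, SE 0.34) and Rsad2 (-1.23, SE 0.37), and 0 were higher. Neither passed with DESeq2, and Rsad2 did not pass without scored doublets or without control 1, control 2 or NP137 1.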
